A study of Mus musculus with 12 samples.

Results

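The genes described here are those of the mouse class II major histocompatibility complex (MHC) together with Ciita. They were taken by symbol from the deposited count table. All 10 listed symbols were found among its 25124 genes, and all 10 passed the filter on low counts that left 17612 genes for testing. H2-Ea-ps passed through its counts in DKK1 mice alone, and H2-Oa through its counts in lesioned libraries alone. The members are the classical chains H2-Aa, H2-Ab1 and H2-Eb1, the chain gene H2-Ea-ps, the peptide-loading chains H2-DMa, H2-DMb1, H2-DMb2 and H2-Oa, the invariant chain Cd74, and Ciita.

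Class II molecules are pairs of an alpha and a beta chain that carry peptides from the endosome to the cell surface, where CD4 T cells read them. H2-Aa and H2-Ab1 encode the alpha and beta chains of I-A, and H2-Eb1 and the Ea gene those of I-E. In the brain, class II is known mainly from microglia, border macrophages, dendritic cells and B cells, and interferon gamma raises it through CIITA, a coactivator that acts on the promoters of these genes. Laboratory mouse strains carry different class II haplotypes, and in C57BL/6 mice the Ea gene is silent, so that they make no I-E.

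The series examined brain tissue 28 days after middle cerebral artery occlusion (MCAo), a model of ischemic stroke, to learn what dickkopf-1 (DKK1), a secreted Wnt antagonist, does after stroke. The first genotype, called DKK1 here, carried rtTA with EGFP at the ROSA26 locus, tetO-Dkk1 at Hprt and a TCF/Lef1-lacZ reporter transgene. The second was wild type (WT, C57BL6/J). Both genotypes had MCAo and both received doxycycline (200 mg/kg), begun 3 days after MCAo. The groups were DKK1 ipsilateral (lesioned), WT ipsilateral, DKK1 contralateral (intact) and WT contralateral, with 3 libraries each. The labels give neither the age of the mice nor the strain background of the DKK1 alleles, and no group carried the alleles without doxycycline. A genotype difference therefore cannot be assigned to DKK1, and induced DKK1, the other alleles and linked or background DNA cannot be told apart. Nothing in the labels states that the libraries of a group are from different mice, and the p-values thus cover the spread among these libraries alone, which may be technical.

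Total counts were 21209920 to 26911840 per library. Dkk1 had 32, 7 and 44 counts in the DKK1 ipsilateral libraries, 13, 5 and 4 in the DKK1 contralateral libraries and 0 in all 6 WT libraries. A pair of libraries stood apart within their groups on the first principal component (73.8% of the variance). WT ipsilateral 1 lay at 70.9, among the DKK1 ipsilateral libraries (62.8 to 83.8) and away from WT ipsilateral 2 and 3 (29.2 and 37.1), and WT contralateral 1 lay at −41.2, against −72.6 and −63.3 for WT contralateral 2 and 3. Results that rest on them are given with and without them, or are said to rest on them. Summed over 5 neuron markers, every library held 2076 to 3350 CPM (counts scaled to library size with TMM, edgeR's trimmed mean of M-values), the labelled tissue being brain.

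Class II promoters are known for an X box, bound by the RFX complex, and a Y box downstream of it, bound by NF-Y, on which CIITA assembles. Promoters of H2-Eb1, H2-DMb1, H2-DMb2, H2-Aa and the non-member H2-Ob are shown for these boxes. Those of H2-Oa and H2-DMa are described but not shown. The choice does not follow how closely the genes moved together. Over the 12 libraries the log2 CPM of Cd74 correlated at 0.956 with H2-Oa, 0.903 with H2-DMb1 and 0.863 with H2-DMb2 (Pearson r). The RefSeq table for GRCm38.p6 held 300-base promoters (250 bases before to 50 after each start) of 6 of the 10 members (none of H2-Ab1, H2-Ea-ps, Cd74 and Ciita), and of H2-Ob, the partner gene of H2-Oa. Each line is a 130-base stretch that ends at the base before the start site, 5′ to 3′ on the strand of the gene, with the X motif (AACNNATGA) and the Y motif (GATTGG, on either strand) in capitals. The stretches lie at chr17:34305737-34305866 (+) for H2-Eb1, chr17:34153061-34153190 (+) for H2-DMb1, chr17:34145119-34145248 (+) for H2-DMb2, chr17:34238775-34238904 (+) for H2-Ob and chr17:34287824-34287953 (−) for H2-Aa.
H2-Eb1: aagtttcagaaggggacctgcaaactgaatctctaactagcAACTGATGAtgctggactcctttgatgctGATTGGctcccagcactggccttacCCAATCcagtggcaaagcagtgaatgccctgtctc
H2-DMb1: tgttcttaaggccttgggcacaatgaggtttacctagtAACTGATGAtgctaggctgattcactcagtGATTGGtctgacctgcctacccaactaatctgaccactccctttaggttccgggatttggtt
H2-DMb2: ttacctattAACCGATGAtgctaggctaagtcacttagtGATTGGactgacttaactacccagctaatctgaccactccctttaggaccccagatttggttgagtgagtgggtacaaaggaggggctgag
H2-Ob: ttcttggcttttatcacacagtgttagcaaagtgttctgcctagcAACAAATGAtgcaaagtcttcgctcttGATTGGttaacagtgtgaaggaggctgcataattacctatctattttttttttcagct
H2-Aa: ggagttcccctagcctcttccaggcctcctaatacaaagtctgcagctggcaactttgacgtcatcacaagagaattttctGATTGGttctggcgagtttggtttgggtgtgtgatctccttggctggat
In H2-Eb1, H2-DMb1, H2-DMb2 and H2-Ob the X motif stood before the Y motif, 29, 30, 30 and 27 bases apart from start to start. H2-Aa and H2-Oa held the Y motif without these X letters, and H2-DMa held neither in the promoter of its first start and a Y motif in that of its other start. The letters of the motifs were chosen after these sequences were seen. Of 32851 promoters of the same length, 2.85% held the X motif, 16.1% the Y motif and 10 (0.0304%) an X motif followed by a Y motif within 40 bases on the strand of the gene. H2-DMb1 and H2-DMb2 thus share the motifs and their spacing in the reference genome. No promoter sequence of the DKK1 mice was at hand, and a link of these motifs to the levels was not tested.

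After the lesion, class II RNA rose in both genotypes. In DKK1 mice 10 of the 10 members were higher in the lesioned hemisphere (edgeR quasi-likelihood test, Benjamini-Hochberg adjusted p under 0.05), where 27.5% of all tested genes were called higher and 22.6% lower. The median log2 fold change of the members was 4.64, against 0.01 over all genes tested. In WT mice 9 of the 10 were higher, where 21.2% of all genes were called higher and 15.9% lower. The WT median was 3.35 as fitted, and 2.97 with H2-Ea-ps set at its bound, against 0.01 over all genes. H2-Oa, at 2 to 10 counts in the intact libraries, passed the filter on low counts through its lesioned libraries alone. Its lesion calls are in both counts, but they describe the rise and are no independent support. In bulk tissue, more cells of a type and more RNA per cell cannot be told apart.

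**Figure D1:**
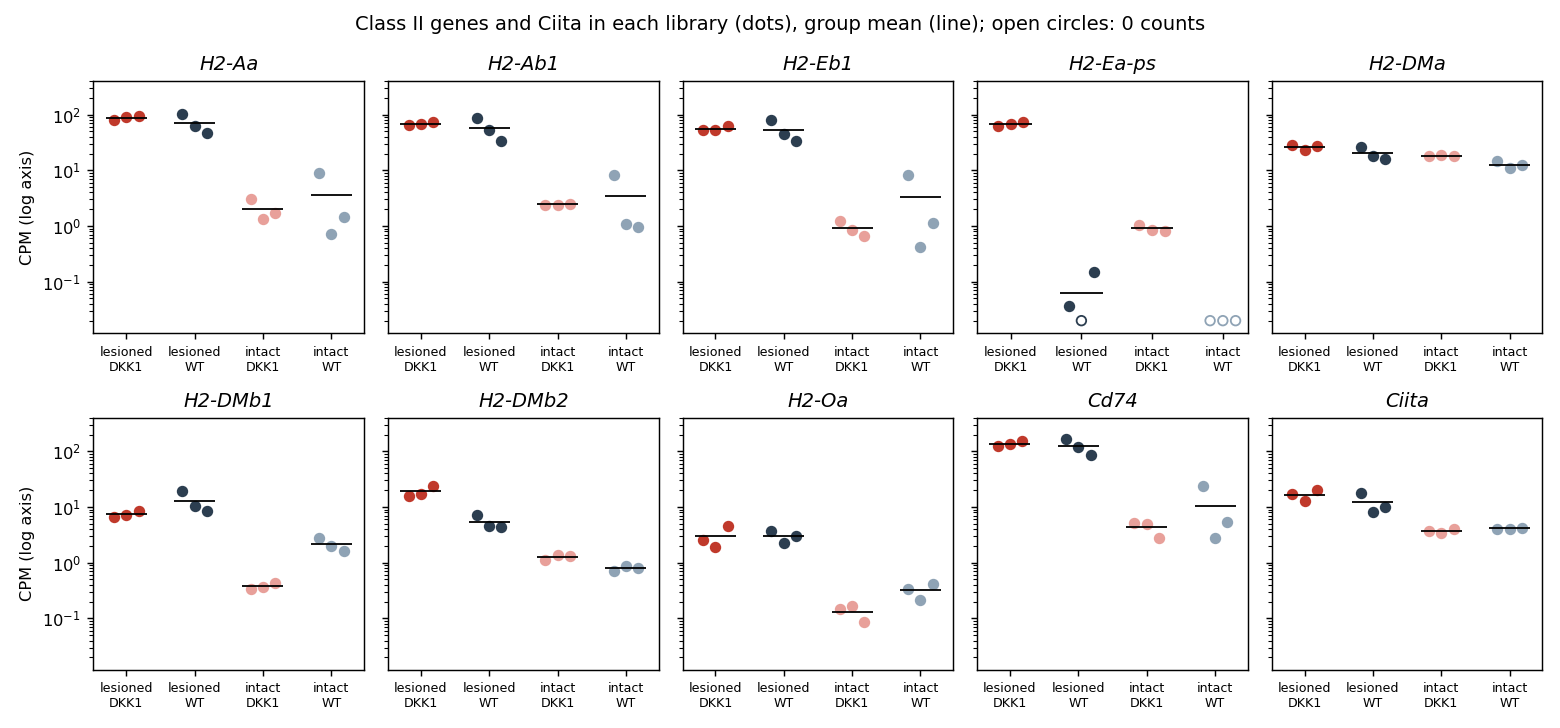
Level of each member in every library, in CPM on a log axis, by group (lesioned DKK1, lesioned WT, intact DKK1, intact WT), with dots for libraries, lines for group means and open circles at the axis floor for 0 counts. H2-Ea-ps lies at 63.7 to 72.3 CPM in lesioned DKK1 libraries and at 0 to 0.15 CPM in lesioned WT libraries, while the other classical chains overlap between the genotypes.

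The classical I-A chains had the pattern of the group. H2-Aa (chromosome 17, 34282744 to 34287823, mm10) had 81.4, 90.1 and 94.3 CPM in DKK1 ipsilateral libraries, against 3.04, 1.31 and 1.70 CPM in DKK1 contralateral libraries. In WT mice it had 104, 62.5 and 46.6 CPM in ipsilateral and 8.85, 0.73 and 1.44 CPM in contralateral libraries. The hemispheres did not overlap in either genotype, and the lesioned DKK1 levels lay within the range of the lesioned WT levels. Its log2 fold change with the lesion was 5.48 ± 0.68 in DKK1 mice (SE, adjusted p = 8.65e-05) and 4.23 ± 0.62 in WT mice (adjusted p = 0.000545).

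H2-Ab1 (chromosome 17, 34263227 to 34269418) had 65.9, 66.7 and 72.7 CPM in DKK1 ipsilateral and 2.35, 2.42 and 2.53 CPM in DKK1 contralateral libraries. In WT mice it had 88.3, 52.2 and 33.9 CPM in ipsilateral and 8.25, 1.07 and 0.97 CPM in contralateral libraries. Its levels were close together in the DKK1 libraries of each hemisphere and spread more widely in the WT libraries. It rose by 4.81 ± 0.65 in DKK1 mice and by 4.04 ± 0.61 in WT mice (log2, SE). The log2 ratio of H2-Aa to H2-Ab1 within a lesioned library (CPM, genes of 1121 and 1185 bases) was 0.37 ± 0.06 in DKK1 and 0.32 ± 0.12 in WT mice (SD, n = 3 each).

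H2-Eb1, the beta chain of I-E (chromosome 17, 34305867 to 34316674), was expressed in both genotypes. It had 52.9, 52.2 and 63.2 CPM in DKK1 ipsilateral and 1.22, 0.86 and 0.65 CPM in DKK1 contralateral libraries. In WT mice H2-Eb1 had 80.3, 45.1 and 33.9 CPM in ipsilateral and 8.33, 0.43 and 1.14 CPM in contralateral libraries. It rose by 5.95 ± 0.81 in DKK1 mice and by 3.96 ± 0.67 in WT mice (log2, SE).

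Cd74, the invariant chain that holds the class II groove until peptide is loaded (chromosome 18, 60803849 to 60812652), was the member with the highest level per kb of transcript in lesioned tissue. It had 125, 138 and 151 CPM in DKK1 ipsilateral and 5.14, 5.002 and 2.79 CPM in DKK1 contralateral libraries. In WT mice Cd74 had 165, 122 and 84.9 CPM in ipsilateral and 23.4, 2.78 and 5.32 CPM in contralateral libraries. It rose by 4.9996 ± 0.64 in DKK1 mice and by 3.53 ± 0.57 in WT mice (log2, SE). Per kb of transcript, the lesioned DKK1 levels were 98.1 ± 9.35 CPM per kb for Cd74, 87.4 ± 5.53 for H2-Ea-ps, 79.0 ± 5.88 for H2-Aa, 57.7 ± 3.15 for H2-Ab1 and 33.8 ± 3.71 for H2-Eb1 (SD, n = 3). In lesioned WT libraries the order was Cd74 at 88.1 ± 28.4, H2-Aa at 63.4 ± 26.6, H2-Ab1 at 49.1 ± 23.3 and H2-Eb1 at 32.0 ± 14.6 CPM per kb, where neighbours in the order lay within each other's spread.

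WT contralateral 1 was above the other intact WT libraries for 4 of these genes. Its level was 8.19 times the mean of WT contralateral 2 and 3 for H2-Aa, 8.09 times for H2-Ab1, 10.6 times for H2-Eb1 and 5.77 times for Cd74. The other members that had counts there stood at 0.86 to 1.498 times, with Ciita at 0.98 times. Summed markers of 7 of the 10 cell types listed were also highest in that library among intact WT libraries. They were 431 CPM in WT contralateral 1 against 298 and 304 for microglia, 45.6 against 34.3 and 37.3 for dendritic cells, 7.62 against 4.66 and 5.19 for B cells, 14.5 against 12.1 and 12.7 for border macrophages and 21.3 against 16.3 and 20.6 for monocytes, with astrocytes and endothelium as the others. Their part in these levels was not tested. Without it, the WT lesion response was 6.03 for H2-Aa, 5.82 for H2-Ab1, 6.07 for H2-Eb1 and 4.93 for Cd74 (log2).

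**Figure D2:**
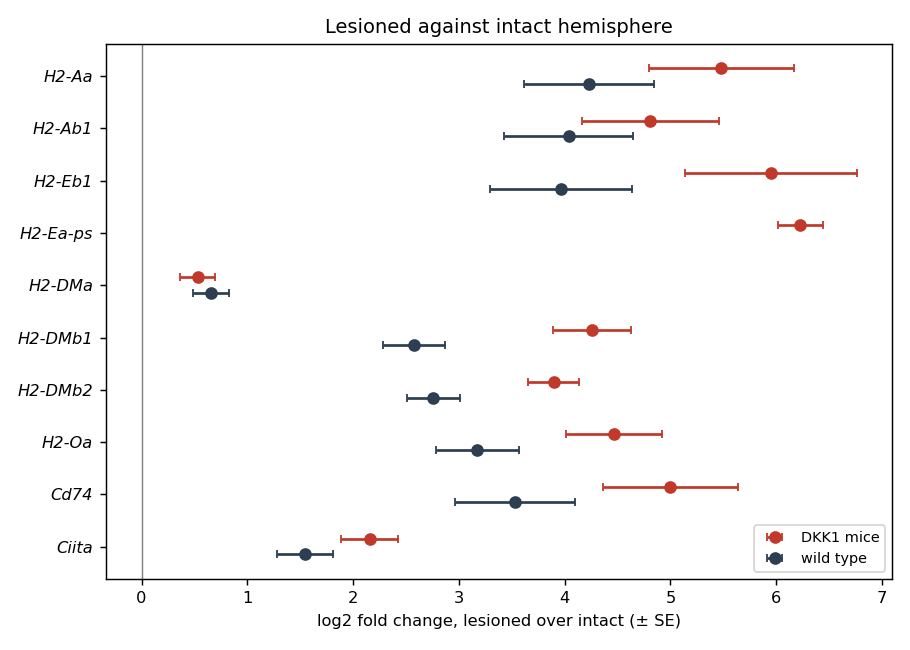
Log2 fold change of each member, lesioned over intact hemisphere, with its standard error, in DKK1 mice (upper point of each pair) and WT mice (lower point), where filled points passed the adjusted p of 0.05. H2-Ea-ps is not drawn for WT mice, which had 5 and 0 counts. The members range from 0.53 (H2-DMa) to 6.23 (H2-Ea-ps) in DKK1 mice.

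The peptide-loading genes rose by unequal amounts. H2-DMa, the alpha chain of DM, which exchanges peptides on class II molecules, had 27.9, 23.6 and 27.8 CPM in DKK1 ipsilateral libraries, against 17.7, 19.2 and 17.9 CPM in DKK1 contralateral libraries, so that intact tissue already held most of the lesioned level. In WT mice H2-DMa had 26.3, 18.03 and 15.8 CPM in ipsilateral and 14.6, 11.2 and 12.2 CPM in contralateral libraries. Its rise was the smallest of the members, at 0.53 ± 0.17 in DKK1 mice (log2, SE, adjusted p = 0.0196) and 0.66 ± 0.17 in WT mice (adjusted p = 0.0107). The DKK1 call did not hold when 1 of 4 libraries was left out, namely DKK1 ipsilateral 1 (adjusted p = 0.0541), DKK1 ipsilateral 3 (0.0619), DKK1 contralateral 1 (0.0662) or DKK1 contralateral 3 (0.0660).

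H2-Oa, the alpha chain of DO, an inhibitor of DM that is known from B cells and dendritic cells, stood at 2.91 ± 1.32 CPM per kb in DKK1 and 2.86 ± 0.66 CPM per kb in WT lesions (SD, n = 3 each). It had 2.58, 1.94 and 4.58 CPM in DKK1 ipsilateral and 0.15, 0.16 and 0.09 CPM in DKK1 contralateral libraries. In WT mice it had 3.66, 2.30 and 2.97 CPM in ipsilateral and 0.34, 0.21 and 0.42 CPM in contralateral libraries. It rose by 4.47 ± 0.46 in DKK1 and by 3.18 ± 0.39 in WT mice (log2, SE), but was tested only because of its lesioned counts. H2-Ob, which encodes its partner chain, rose by 5.41 ± 0.44 and 3.57 ± 0.38 in DKK1 and WT mice.

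Ciita rose less than the classical chains. It had 16.8, 12.7 and 20.1 CPM in DKK1 ipsilateral and 3.72, 3.36 and 4.05 CPM in DKK1 contralateral libraries. In WT mice Ciita had 18.02, 8.12 and 10.1 CPM in ipsilateral and 4.09, 4.06 and 4.26 CPM in contralateral libraries. The intact libraries were close together, whichever the genotype. Ciita rose by 2.16 ± 0.27 in DKK1 mice (log2, SE, adjusted p = 6.98e-05) and by 1.55 ± 0.27 in WT mice (adjusted p = 0.00125).

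H2-Ea-ps was on in DKK1 mice and almost absent in WT mice (chromosome 17, 34342212 to 34344645, minus strand). The count table annotates it as protein-coding, while GENCODE classes it as a polymorphic pseudogene, a gene that is intact in some strains and disrupted in others. It had 1626, 1648 and 1939 counts in DKK1 ipsilateral libraries (63.7, 68.0 and 72.3 CPM), against 1, 0 and 4 counts in WT ipsilateral libraries. In the intact hemisphere it had 21, 21 and 19 counts in DKK1 libraries (1.03, 0.86 and 0.83 CPM), against 0 in each WT library. No library of one genotype came near the levels of the other in the lesioned hemisphere, and WT ipsilateral 1, which lay with the DKK1 libraries on the first principal component, held 1 count.

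On the lesioned side H2-Ea-ps was 1065-fold higher in DKK1 than in WT mice (5213 against 5 counts), with a fitted log2 fold change of 9.95 ± 0.29 (SE, adjusted p = 3.78e-08). Without WT ipsilateral 3, which holds 4 of the 5 WT counts, the fitted value was 11.4. On the intact side it was at least 22.1-fold higher, taking 3 counts over the WT group as the floor (61 counts against 0, edgeR adjusted p = 0.00097). Such a bound covers counting error only. H2-Ea-ps was tested only because of its DKK1 counts, so its genotype p-values describe the contrast and are no independent support. Within DKK1 mice the lesion response was 6.23 ± 0.21 (adjusted p = 7.23e-07). In WT mice 5 counts against 0 gave adjusted p = 0.0513, and adjusted p = 0.0282 when blocked on the replicate number or 0.0133 without WT ipsilateral 2, and no fold is given.

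In DKK1 mice H2-Ea-ps moved with H2-Eb1, the gene of its partner chain. The log2 ratio of its CPM to that of H2-Eb1 was 0.28 ± 0.09 in lesioned and 0.03 ± 0.29 in intact DKK1 libraries (SD, n = 3 each), a difference within the spread of the intact libraries. Per kb of transcript, H2-Ea-ps was at 87.4 ± 5.53 and H2-Eb1 at 33.8 ± 3.71 CPM per kb in DKK1 lesions, and H2-Ea-ps was at 0.08 ± 0.10 and H2-Eb1 at 32.0 ± 14.6 CPM per kb in WT lesions.

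H2-DMb1 and H2-DMb2 are neighbouring copies of the gene for the DM beta chain. Their GENCODE transcripts (1404 and 1424 bases) matched at 95.8% of 1080 aligned bases, and 27.2% and 26.8% of their 50-base windows occur unchanged in the other. Reads from such stretches can be split between the copies or assigned to the wrong one, so the value of each copy is uncertain. H2-DMb2 (chromosome 17, 34145249 to 34151553) had 15.9, 17.4 and 24.2 CPM in DKK1 ipsilateral libraries, against 7.10, 4.60 and 4.38 CPM in WT ipsilateral libraries. On the intact side it had 1.13, 1.39 and 1.31 CPM in DKK1 and 0.71, 0.86 and 0.80 CPM in WT libraries. The genotypes did not overlap on either side.

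H2-DMb1 (chromosome 17, 34153191 to 34160229) stood the other way round. It had 6.73, 7.18 and 8.39 CPM in DKK1 ipsilateral libraries, against 19.3, 10.6 and 8.45 CPM in WT ipsilateral libraries. On the intact side it had 0.34, 0.37 and 0.44 CPM in DKK1 and 2.74, 2.01 and 1.65 CPM in WT libraries. The genotypes did not overlap, though the nearest lesioned libraries were almost level. Both copies rose with the lesion, H2-DMb1 by 4.26 ± 0.37 in DKK1 and 2.57 ± 0.29 in WT mice, and H2-DMb2 by 3.90 ± 0.24 in DKK1 and 2.76 ± 0.25 in WT mice (log2, SE).

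The share of H2-DMb2 in the summed counts of both copies was 70.2%, 70.8% and 74.2% in DKK1 ipsilateral libraries, against 26.95%, 30.3% and 34.1% in WT ipsilateral libraries. On the intact side it was 76.7%, 79.1% and 75.0% in DKK1 libraries, against 20.7%, 29.9% and 32.8% in WT libraries. Wilson 95% intervals, which cover counting error only, ran from 59.1% to 88.6% over the DKK1 libraries and from 13.6% to 45.6% over the WT libraries. The share followed genotype in both hemispheres, WT ipsilateral 1 and WT contralateral 1 included. The means differed by 41.3 percentage points on the lesioned side and by 49.2 on the intact side (two-sided exact permutation p = 0.1 each, the smallest that 3 against 3 libraries allow). With the counts of both copies summed, an alternative chosen after the data were seen, the genotype difference did not pass on the lesioned side (0.55 ± 0.24, adjusted p = 0.212) or on the intact side (−0.81 ± 0.31, adjusted p = 0.611). The summed counts rose with the lesion by 3.99 ± 0.29 in DKK1 and 2.63 ± 0.27 in WT mice.

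**Figure D3:**
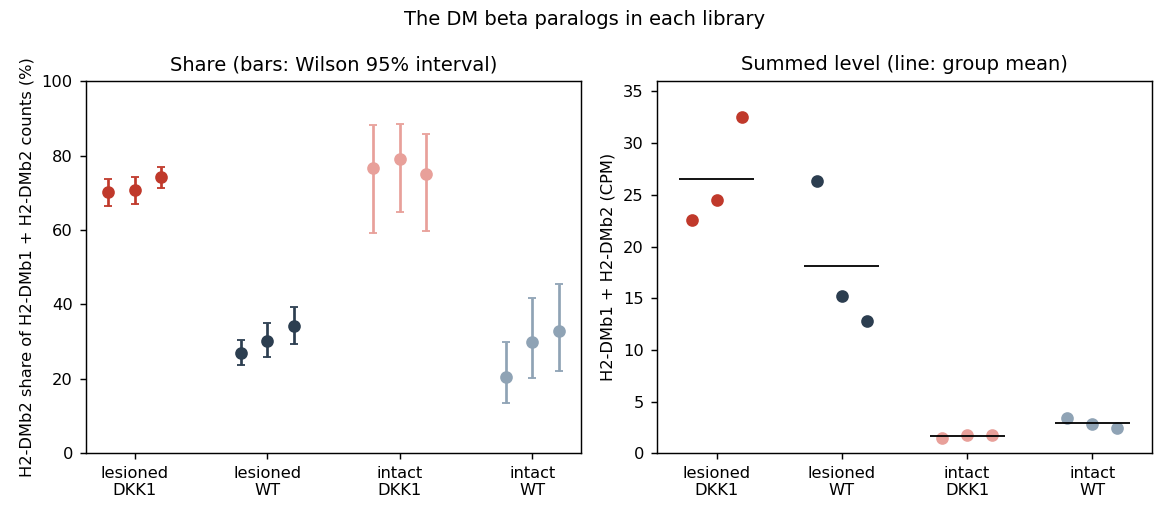
Share of H2-DMb2 in the counts of both copies in percent, with Wilson 95% intervals (left), and the summed CPM of both copies with group means as lines (right), for each library by group. The share is 70.2% to 79.1% in DKK1 libraries and 20.7% to 34.1% in WT libraries, in both hemispheres.

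Between the lesioned hemispheres, 2 of the 10 members were called higher in DKK1 mice and 0 lower, where 1.52% of all tested genes were called higher and 0.846% lower (edgeR). These were H2-DMb2 and H2-Ea-ps, a gene that passed the filter on low counts through its DKK1 counts alone. H2-DMb2 was higher by 1.83 ± 0.21 (log2, SE, adjusted p = 0.00056). The others did not pass, with values of 0.32 ± 0.50 for H2-Aa, 0.23 ± 0.50 for H2-Ab1, 0.08 ± 0.55 for H2-Eb1, 0.16 ± 0.49 for Cd74 and 0.03 ± 0.31 for H2-Oa. H2-DMa was at 0.40 ± 0.17 (adjusted p = 0.201), Ciita at 0.45 ± 0.25 (adjusted p = 0.322) and H2-DMb1 at −0.78 ± 0.27 (adjusted p = 0.136). These standard errors leave room for differences of either sign in the classical chains.

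WT ipsilateral 1, which held the highest WT level of every member but H2-Ea-ps, decided some of these calls. Without it 4 members were called higher, with H2-DMa at 0.64 (adjusted p = 0.0078) and Ciita at 0.86 (adjusted p = 0.0116) beside H2-Ea-ps and H2-DMb2. Without it and WT contralateral 1 together, 6 were called, H2-Aa at 0.70 (adjusted p = 0.0332) and H2-Ab1 at 0.67 (adjusted p = 0.0101) being added. Leaving out these libraries removes the highest WT values, and the choice was made after the data were seen. The share of all genes called in these fits is not given here, so the added calls are not read as particular to the members.

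Between the intact hemispheres, 1 member was called higher in DKK1 mice, H2-Ea-ps, and 1 lower, H2-DMb1, where 0.369% of all tested genes were called higher and 0.511% lower (edgeR). Here too H2-Ea-ps had passed the filter through its DKK1 counts alone. H2-DMb1 stood at −2.46 ± 0.40 (log2, SE, adjusted p = 0.00963), from 26 counts in DKK1 and 159 in WT libraries. That call was lost with limma-voom (adjusted p = 0.398), in the fit that blocks on the replicate number (adjusted p = 0.384), and without DKK1 contralateral 1, 2 or 3 (adjusted p = 0.0637, 0.0671 and 0.0520). H2-DMb2 was at 0.70 ± 0.28 (adjusted p = 0.687). H2-Oa was at −1.26 ± 0.57 (adjusted p = 0.81), from 9 counts in DKK1 and 24 in WT libraries. Ciita was at −0.16 ± 0.28 and did not pass either. For H2-Aa, H2-Ab1, H2-Eb1 and Cd74 the fitted differences were −0.93 ± 0.78, −0.54 ± 0.73, −1.91 ± 0.94 and −1.31 ± 0.66, and without WT contralateral 1 they were 0.87, 1.25, 0.20 and 0.08, none of which passed. Without both WT number 1 libraries H2-DMa was called higher as well (0.65, adjusted p = 0.0141), against 0.53 ± 0.17 (adjusted p = 0.41) with them.

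**Figure D4:**
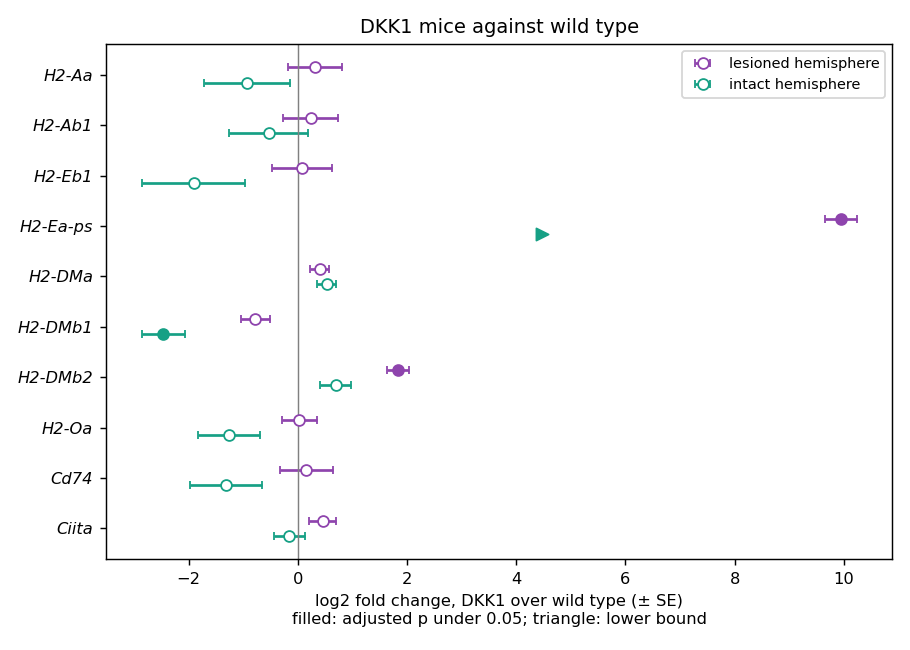
Log2 fold change of each member, DKK1 over WT, with its standard error, in the lesioned (upper point) and the intact hemisphere (lower point), where filled points passed the adjusted p of 0.05 and the triangle is the lower bound for H2-Ea-ps against 0 WT counts. H2-Ea-ps stands at 9.95 in the lesioned hemisphere, and H2-DMb2 (1.83) and H2-DMb1 (−0.78) lie on opposite sides of 0.

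Whether the lesion response itself differed by genotype was tested as an interaction. It was called for 0 of the 10 members by edgeR, with 2 at an unadjusted p under 0.05 (H2-DMb1 at 1.69 ± 0.49 and H2-DMb2 at 1.14 ± 0.35, log2, SE, both adjusted p = 0.435), and for 0 by DESeq2 and limma-voom. Over all genes 0.00568% were called in either direction. H2-Ea-ps, with 0 counts in intact WT libraries, has no usable interaction value. The interaction was 1.47 ± 0.82 for Cd74, 1.29 ± 0.65 for H2-Oa, 0.61 ± 0.38 for Ciita and −0.13 ± 0.24 for H2-DMa (log2, SE). The lesion responses of 8 of the 9 members other than H2-Ea-ps were larger in DKK1 than in WT mice as fitted, H2-DMa being the exception. The median interaction of these 9 was 1.25. That count and median rest in part on WT contralateral 1 and are not given without it. Without WT contralateral 1 the interaction was −0.55 for H2-Aa, −1.02 for H2-Ab1 and −0.12 for H2-Eb1, against 1.25, 0.77 and 1.99 with it. Blocking on the replicate number, H2-DMb1 was called (1.72, adjusted p = 0.0186), and without WT ipsilateral 1 H2-DMb1 (2.11, adjusted p = 0.0204) and H2-DMb2 (1.39, adjusted p = 0.0424) were called. For these fits too, the share of all genes called is not given here.

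Set against Cd74 in the same library, the lesioned genotypes lay close for the classical chains. Such a ratio takes out the amount of class II RNA only as far as Cd74 tracks it. The difference of mean log2 ratios, DKK1 minus WT, was 0.19 for H2-Aa, 0.14 for H2-Ab1 and −0.03 for H2-Eb1. For the loading copies it was 1.64 for H2-DMb2 and −0.90 for H2-DMb1, each without overlap between the genotypes. For H2-Ea-ps it was 10.003. In intact libraries the difference was 0.60 for H2-Aa and −0.10 for H2-Eb1, with overlap, and 0.995 for H2-Ab1, without overlap. There it was 1.43 for H2-DMb2 and −1.63 for H2-DMb1, with overlap between the genotypes. The CPM of both copies did not overlap there. Cd74, the denominator, stood in WT contralateral 1 at 5.77 times the mean of WT contralateral 2 and 3, which widens the WT ratios. Each two-sided exact permutation p was at least 0.1, below which 3 against 3 libraries cannot go.

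The genes around the members were read in the same way, over chromosome 17 from 33592379 to 34844645 (mm10, 500 kb beyond the outermost members on that chromosome). Of 66 neighbours 57 were tested. On the lesioned side 5 (8.77%) were called higher in DKK1 mice and 3 (5.26%) lower, and on the intact side 2 (3.51%) higher and 5 (8.77%) lower, against the shares of all genes given above. Complement component C4a was higher on the lesioned side by 2.12 ± 0.20 (log2, SE), and Notch4, a receptor of endothelium, by 0.92 ± 0.20. Rps18, a ribosomal protein gene, was lower on both sides, at −1.29 ± 0.09 lesioned and −1.52 ± 0.10 intact. H2-K2, a class I gene, was lower on the intact side, at −2.65 ± 0.32. Reads of C4a, H2-K2 and ribosomal protein genes can be shared with near-identical copies. The smaller calls on the lesioned side were Wdr46 (0.54), Brd2 (0.23) and Vps52 (0.22), and on the intact side Rgl2 (−0.49), H2-Ke6 (0.46) and Vps52 (0.24). The other 2 genes called lower on each side carry clone-type names and were left out by the naming rule, but AA388235 is given for its size, after its values were seen. It had 30 counts over the DKK1 ipsilateral libraries, against 522 over the WT ipsilateral libraries, and 7 over the DKK1 contralateral libraries, against 491 over the WT contralateral libraries (−4.07 ± 0.32 lesioned and −5.94 ± 0.40 intact, log2, SE).

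**Figure D5:**
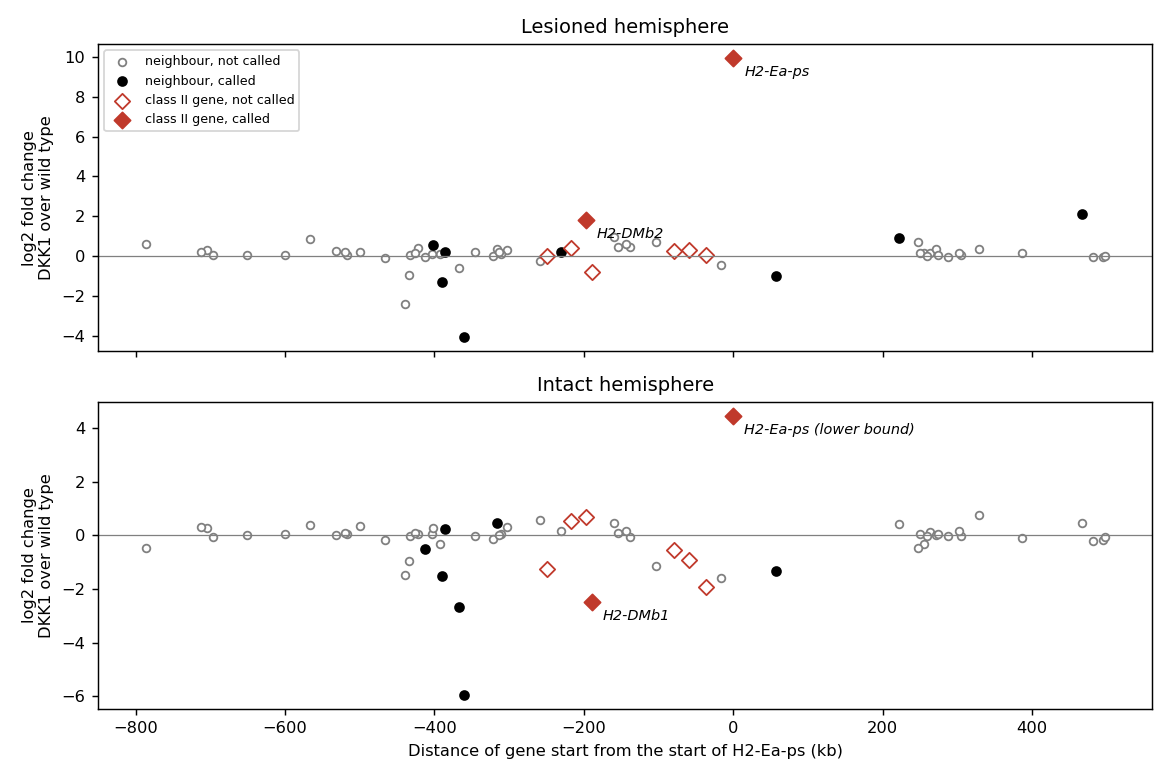
Log2 fold change, DKK1 over WT, of the class II members and of the neighbouring genes on chromosome 17 against their distance from H2-Ea-ps in kb, for the lesioned and the intact hemisphere, where H2-Ea-ps on the intact side is a lower bound. Genes called in each direction lie among neighbours that were not called, up to C4a at 467 kb.

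Genes that act with class II were counted by list, beside the shares over all tested genes (edgeR). With the lesion 27.5% were called higher and 22.6% lower in DKK1 mice, and 21.2% higher and 15.9% lower in WT mice. Of 7 transcription factors of class II promoters, 1 was higher and 1 lower with the lesion in each genotype. These were the NF-Y subunits Nfya (0.91 ± 0.09 in DKK1, 0.54 ± 0.09 in WT mice) and Nfyb (−0.35 ± 0.06 and −0.30 ± 0.06), while the RFX subunit Rfx5 did not pass (0.13 ± 0.09 and 0.16 ± 0.09). Of 8 interferon gamma pathway genes 7 were tested and 5 were higher in each genotype. Among them were the receptor chain Ifngr1 (1.81 ± 0.11 in DKK1, 1.48 ± 0.11 in WT mice) and the transcription factor Irf1 (2.25 ± 0.22 and 1.70 ± 0.22). Ifng itself had 2, 3 and 0 counts in DKK1 ipsilateral libraries, 4, 2 and 2 in WT ipsilateral libraries and 0 in all intact libraries, and was not tested.

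All 9 genes of class II peptide processing and turnover were higher with the lesion in each genotype, against 27.5% of all tested genes in DKK1 and 21.2% in WT mice. The thiol reductase Ifi30 rose by 3.06 ± 0.22 in DKK1 and 2.82 ± 0.22 in WT mice, and cathepsin S (Ctss), which trims the invariant chain, by 2.42 ± 0.16 and 1.80 ± 0.15. Cathepsin D (Ctsd, 0.62 ± 0.12) and cathepsin B (Ctsb, 0.50 ± 0.11) were also higher in DKK1 than in WT lesions. Of 9 recognition and costimulation genes 8 were higher and 1 lower in each genotype. Cd86, a costimulatory ligand, rose by 3.42 ± 0.23 in DKK1 and 2.62 ± 0.22 in WT mice, and Lag3, a receptor for class II, by 3.25 ± 0.27 and 2.62 ± 0.26. Cd4 fell, at −1.03 ± 0.19 and −1.47 ± 0.19. It is also among 8 listed T cell markers, of which 7 rose and 1 fell in each genotype. Their median log2 fold change was 5.26 in DKK1 and 3.89 in WT mice. Intact DKK1 libraries held a mean of 38.5 CPM of Cd4 beside 0.09 CPM of Cd3e, so Cd4 RNA is not read here as a measure of T cells. Of 9 other symbols listed for the class II region, H2-Ea is not a symbol of the count table, which leaves 8 genes, of which 7 were tested and 6 were higher in each genotype, with the immunoproteasome subunits Psmb8 (3.16 ± 0.27 in DKK1, 2.72 ± 0.26 in WT mice) and Psmb9 (3.24 ± 0.32 and 2.72 ± 0.33) among them. Between the genotypes in the lesioned hemisphere, the transcription, interferon and recognition lists had 0 called genes by edgeR, the processing list 2 and the region list 1 (Brd2). Over all tested genes 1.52% were called higher there and 0.846% lower.

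Most listed markers of the cell types known to carry class II rose beside the members. Over all tested genes, 27.5% in DKK1 and 21.2% in WT mice were called higher with the lesion (edgeR). Summed microglia markers were 1135 to 1254 CPM in DKK1 ipsilateral, 756 to 1172 in WT ipsilateral, 284 to 350 in DKK1 contralateral and 298 to 431 CPM in WT contralateral libraries, and 8 of 8 rose in DKK1 and 7 of 8 in WT mice. Dendritic cell markers summed to 104 to 119 CPM in DKK1 ipsilateral, 78.4 to 136 in WT ipsilateral, 33.6 to 36.3 in DKK1 contralateral and 34.3 to 45.6 CPM in WT contralateral libraries (7 and 6 of 10 rose). Most of that summed rise was Itgax, from a mean of 0.39 to 56.5 CPM in DKK1 and from 2.04 to 49.8 CPM in WT mice. Flt3 (−0.13), Zbtb46 (0.22) and Siglech (0.58, log2) did not pass in DKK1 mice by edgeR, so the sum does not describe the list as a set. Border macrophage markers summed to 61.4 to 92.6, 35.4 to 65.7, 13.1 to 14.4 and 12.1 to 14.5 CPM in the same order of groups (5 of 7 rose in each genotype). Monocyte markers summed to 65.3 to 85.2, 40.5 to 64.6, 19.2 to 27.8 and 16.3 to 21.3 CPM, and 5 of 5 rose in each genotype. B cell markers summed to 93.5 to 162 CPM in DKK1 ipsilateral and 40.7 to 53.5 in WT ipsilateral libraries, against 6.27 to 6.50 in DKK1 contralateral and 4.66 to 7.62 CPM in WT contralateral libraries, and 9 of 9 rose in each genotype. Between the lesioned hemispheres 4 of 9 B cell markers were higher in DKK1 mice (Ms4a1, Pax5, Cr2 and Bank1, at 1.10 to 1.78), and 0 of the microglia, border macrophage, monocyte and dendritic cell markers passed by edgeR. Over all tested genes 1.52% were called higher there. Markers at 0 counts occurred in intact libraries only. Among them were Blk, Ms4a1 and Pax5 of the B cell list, Xcr1 of the dendritic cell list and Plac8, Ly6c2 and Chil3 of the monocyte list. The part of these cells in the class II values was not tested.

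As a description over 12 libraries that fall into lesioned and intact sets, the tested genes outside the members whose log2 CPM was most like that of Cd74 were Itgax (Pearson r = 0.997), Gpnmb (0.994), Clec7a (0.994), H2-Q7 (0.994) and H2-Q9 (0.994), the last pair having the same counts in all 12 libraries. The genes outside the members most like H2-Ea-ps were H2-T3 (0.972), Cd1d2 (0.958), Hist2h2bb (0.954), Slc48a1 (0.948) and Mef2b (0.947). H2-T3, a non-classical class I gene, had 86, 104 and 128 counts in DKK1 ipsilateral libraries, 1, 0 and 0 in WT ipsilateral libraries, 15, 19 and 8 in DKK1 contralateral libraries and 0 in each WT contralateral library. Among the members the closest pair was Cd74 and H2-Eb1 (r = 0.998) and the least alike were H2-Ea-ps and H2-DMb1 (r = 0.133).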

How the data were processed

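Directional mRNA libraries of brain tissue formed 4 groups of 3, per the labels. The raw counts deposited by the authors give 1 RefSeq transcript for each of 25124 symbols, with mm10 coordinates in the same table. STAR 2.7.0f, HOMER 4.11 and DESeq2 are the tools named, per the submitters' processing notes; whether counting used strand is not given in the sources used here. With edgeR 4.0.16 (R 4.3.3), genes were kept by its filter (minimum count 10, by group), which left 17612, and scaled by TMM (factors 0.963 to 1.04). One robust quasi-likelihood model of all 12 libraries gave 5 two-sided contrasts, called at an adjusted p under 0.05 (Benjamini-Hochberg, over the 17612 genes). An adjusted p with no tool beside it is from edgeR. Alternatives were upper-quartile scaling, DESeq2 1.42.0, limma-voom (limma 3.58.1), no filter, leaving out each library and a replicate block. The fit was also run on simulated counts with the same spread for all genes. That run does not represent groups at 0 counts or with an outlying library. Ratios used a prior count of 0.5.

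The labels number libraries 1 to 3 without saying that a number marks 1 animal. Deviations of same-numbered libraries from their group means correlated at 0.276, 0.125 and 0.105 in DKK1 and at 0.487, 0.310 and 0.297 in WT mice. Libraries of different numbers were not compared, so these values cannot show that a number marks 1 animal. The numbers were used as a replicate block in an alternative fit, and the main fit leaves any pairing out. The block was genotype by number for the lesion responses and interaction, and a limma-voom random effect (correlation 0.313) for genotype.

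All 10 members were named in every comparison. Of each list up to 4 genes with the smallest p in the DKK1 lesion response were eligible to be named, of the neighbours up to 8 called ones with the largest change, and for Cd74 and H2-Ea-ps the 5 genes most alike, predicted genes left out. AA388235, Ctsb, Cd4, Cd3e, Ifng and the B cell and dendritic cell markers were named in addition, after their values were seen. Some genes of the lists are not reported here. The members and lists were chosen with earlier results of these data known. Promoters came from RefSeq (GRCm38.p6).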

Additional observations from a re-analysis of the deposited data

How the results depend on the processing

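The lesion responses had 10 calls in DKK1 and 9 in WT mice, and 9 to 10 in each under all settings run. The main calls include H2-Oa, which was tested through its lesioned libraries alone. H2-DMa lost its DKK1 call when any 1 of 4 libraries was left out, and H2-Ea-ps gained a WT call with the block and without WT ipsilateral 2. The counts of the genotype comparisons moved more, and the share of all genes called under each alternative is not given here. On the lesioned side 2 members were called, 2 to 4 when each library was left out in turn, and 6 without both WT number 1 libraries. On the intact side 2 were called, 1 to 2 when each library was left out, 1 with limma-voom and 1 with the replicate block. The interaction had 0 calls, 0 to 2 when each library was left out, 1 with the replicate block and 1 without both WT number 1 libraries. In all 5 comparisons the block changed no other count by over 1.5 times. Signs turned only for differences that had not passed. On the lesioned side H2-Oa (0.03) was −0.0285 with limma-voom and −0.0261 with the block, and when libraries were left out H2-Oa ran from −0.40 to 0.27, H2-Ab1 from −0.0384 to 0.67, H2-Eb1 from −0.16 to 0.51 and Cd74 from −0.0549 to 0.42. On the intact side H2-Ab1 was 0.18 with limma-voom and 0.19 with the block, and the ranges were −1.40 to 0.87 for H2-Aa, −0.97 to 1.25 for H2-Ab1, −2.41 to 0.20 for H2-Eb1 and −1.75 to 0.0849 for Cd74. Without both WT number 1 libraries the intact differences were 0.86 (H2-Aa), 1.25 (H2-Ab1), 0.20 (H2-Eb1) and 0.0845 (Cd74), and the interaction was −0.16 (H2-Aa) and −0.58 (H2-Ab1). When libraries were left out the interaction ran from −0.55 to 1.72 for H2-Aa, −1.02 to 1.21 for H2-Ab1, −0.12 to 2.49 for H2-Eb1 and −0.28 to 0.12 for H2-DMa. Summing H2-DMb1 and H2-DMb2 gave 0.55 on the lesioned side, where H2-DMb1 alone was at −0.78, and −0.81 on the intact side, where H2-DMb2 alone was at 0.70. The cause was not tested for any of these. Counts of 26 to 61 per group limit the intact DKK1 values of H2-DMb1, H2-Eb1 and H2-Ea-ps.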
